A study of Mus musculus with 63 samples.

Results

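Intron miRNAs of Clcn5 were followed through ureteric obstruction and its reversal in 4 sorted cell types of the mouse kidney. The cluster was defined by a list of 9 mature miRNA names from the miR-532, miR-188, miR-362, miR-501 and miR-500 hairpins, and 8 of the 9 were counted, out of 2110 loci in the table. These are mmu-miR-532-5p, mmu-miR-532-3p, mmu-miR-188-5p, mmu-miR-362-5p, mmu-miR-362-3p, mmu-miR-501-5p, mmu-miR-501-3p and mmu-miR-500-3p. The ninth name, mmu-miR-660-5p, was not analysed here. In GRCm38 the 8 loci lie on the minus strand of chromosome X between 7237695 and 7248477, a span of 10783 bp. They sit in 1 intron of Clcn5 (X, 7153810 to 7319358), between exons 3 and 4 of its 15-exon protein-coding transcript in GENCODE M21.

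Clcn5 encodes ClC-5, a chloride/proton exchanger of endosomes that is best known from the PT, where its loss impairs protein reabsorption and causes Dent disease. Intron miRNAs transcribed in the same sense as their host are commonly cut from one long transcript, and each hairpin then gives a 5p and a 3p arm. The arm that is kept, and how long it persists, differs between hairpins, so arms and neighbours that share a transcript need not share a level. Target choice depends mostly on the seed, bases 2 to 8 of the mature miRNA.

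The mature sequences are shown because the seeds split the cluster into families and because mmu-miR-500-3p and mmu-miR-501-3p are nearly the same molecule. They were taken from RefSeq on GRCm38.p6, which gave 7 of the 8 members, and the seed is in capitals.
mmu-miR-532-3p: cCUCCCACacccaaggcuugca
mmu-miR-188-5p: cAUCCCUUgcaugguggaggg
mmu-miR-362-5p: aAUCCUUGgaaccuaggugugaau
mmu-miR-362-3p: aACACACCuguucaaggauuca
mmu-miR-501-5p: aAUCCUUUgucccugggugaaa
mmu-miR-501-3p: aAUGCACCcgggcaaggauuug
mmu-miR-500-3p: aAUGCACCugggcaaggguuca
mmu-miR-501-3p and mmu-miR-500-3p share the seed AUGCACC and were identical at 18 of 22 bases. Reads of one could have been counted for the other, so the split between them is uncertain. mmu-miR-362-3p matched mmu-miR-500-3p at 17 of 22 bases but has another seed. No other pair among the 7 members with a sequence shares a seed.

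All mice were male C57BL/6, 8 to 12 weeks old, and were sham operated, obstructed for 2 days (UUO-2), obstructed for 7 days (UUO-7), or obstructed for 7 days and kept for 2 weeks after the ureter was reimplanted (R-UUO). Kidneys were sorted by antibody or lectin into CD31+ endothelial cells (ECs), F4/80+ macrophages (Macs), LTL+ proximal tubule cells (PT cells) and PDGFR-β+ cells, and small RNA was sequenced from 4 mice per condition. The sequenced mice were the 4 of 5 per group whose Havcr1 level lay closest to the group mean, so the spread between mice may be narrower than in the model as a whole. The authors removed 1 library of PDGFR-β+ cells at UUO-7, which left 63 libraries from 16 mice and 3 libraries in that group. A replicate number within a condition was taken as 1 mouse. Each sort is a bulk sample, in which fewer cells of a type and less RNA per cell cannot be told apart.

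Total counts per library ranged from 616565 to 10819385. The summed markers of each label were highest in the libraries of that label. The summed level of 2 EC miRNAs (miR-126a arms) averaged 144523 CPM (counts relative to library size after TMM scaling) in ECs and at most 1600 CPM in the other cell types. That of 4 leukocyte miRNAs (miR-142a and miR-223 arms) averaged 27155 CPM in Macs and 99.96 to 235.4 CPM elsewhere. The 4 PT miRNAs (miR-192, miR-194 and miR-215) averaged 66519 CPM in PT cells against at most 2368 CPM, and the 5 stromal miRNAs (miR-143, miR-145a, miR-199a and miR-214) averaged 240436 CPM in PDGFR-β+ cells against at most 18522 CPM. miR-192-5p alone gave 66480 CPM of the PT sum in PT cells. miR-215-5p, at 1.59 CPM there, was not a marker of PT cells in these libraries (1.75 to 2.10 CPM elsewhere).

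The cluster was highest in Macs. The 8 miRNAs together took 0.329% of all counts in Macs, 0.0344% in PT cells, 0.0157% in PDGFR-β+ cells and 0.0138% in ECs. Of the 212349 counts of the cluster, 177038 came from the 16 Mac libraries. The cell type in which ClC-5 is best known, the PT, was thus not the one with the highest level of the intron miRNAs.

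**Figure D1:**
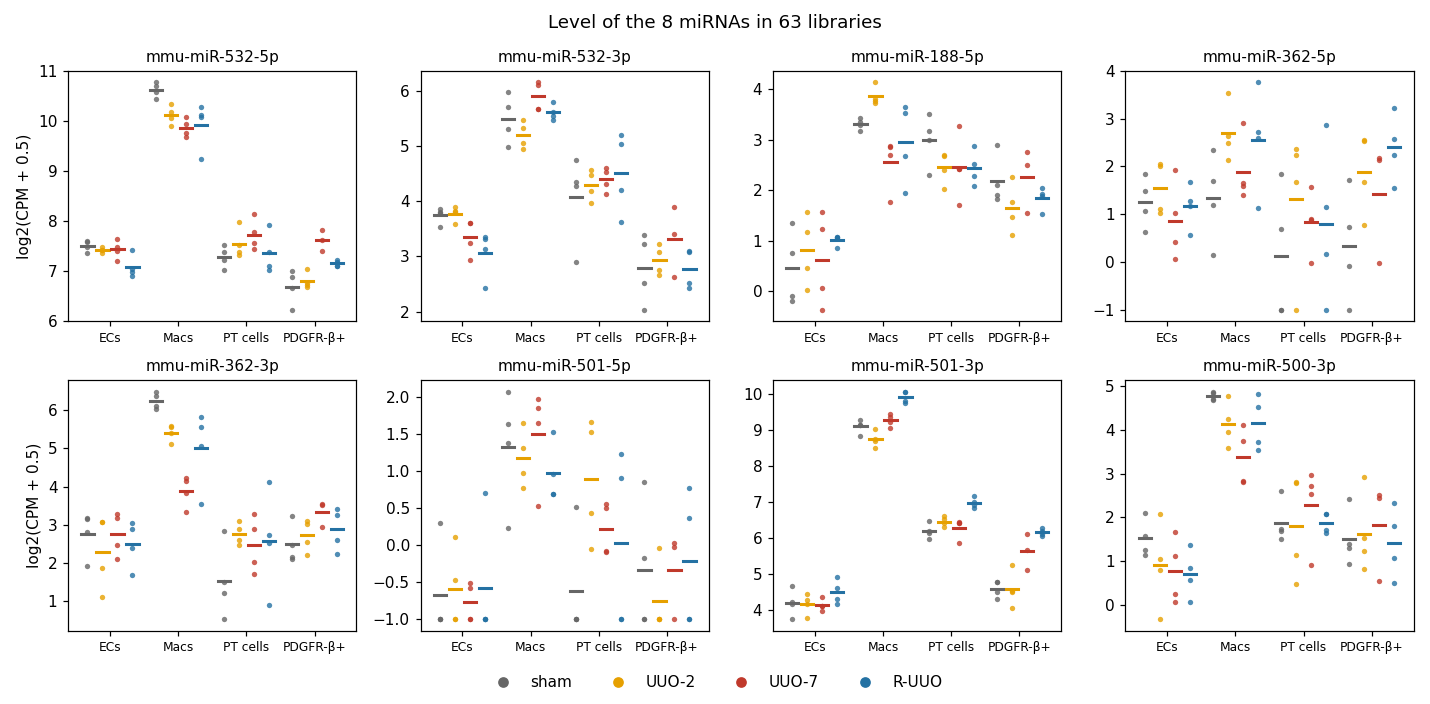
Level of each of the 8 miRNAs in all 63 libraries, as log2(CPM + 0.5) with scaling over all libraries, by cell type and condition; points are libraries and bars are group means. The Mac libraries of mmu-miR-532-5p and mmu-miR-501-3p all sit higher than the libraries of ECs, PT cells and PDGFR-β+ cells, and mmu-miR-362-5p and mmu-miR-501-5p reach 0 counts in some libraries.

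mmu-miR-501-3p showed the widest gap between cell types. It averaged 644 ± 220 CPM (SD, n = 16) in Macs, 91.4 ± 23.9 CPM (n = 16) in PT cells, 41.9 ± 22.5 CPM (n = 15) in PDGFR-β+ cells and 18.9 ± 4.39 CPM (n = 16) in ECs. The lowest Mac library had 361 CPM and the highest library of any other cell type 144 CPM. In the fit over all libraries, averaged over the 4 conditions, mmu-miR-501-3p was 32.8-fold lower in ECs than in Macs (adjusted p = 1.3e-41, edgeR's quasi-likelihood test with Benjamini-Hochberg adjustment). All 6 pairs of cell types differed for this miRNA when averaged over the conditions. ECs and PDGFR-β+ cells were not called different in the sham libraries alone, where PDGFR-β+ cells had 23.7 ± 3.77 CPM (SD, n = 4) and ECs 18.4 ± 5.04 CPM (log2 fold change for ECs -0.31, adjusted p = 0.22, against -1.01 over all conditions). At R-UUO the PDGFR-β+ mean was 70.8 ± 5.32 CPM (n = 4).

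mmu-miR-532-5p was the most abundant member, with 1166 ± 311 CPM (SD, n = 16) in Macs. Its other 3 means lay close together, at 182 ± 44.3 CPM in PT cells (n = 16), 165 ± 23.7 CPM in ECs (n = 16) and 134 ± 39.0 CPM in PDGFR-β+ cells (n = 15). ECs and PT cells did not pass the test (log2 fold change -0.14 ± 0.09, SE, adjusted p = 0.16 by edgeR's quasi-likelihood test), and PDGFR-β+ cells differed from both by less than 1.5-fold. By mean CPM over the 671 loci tested in all libraries, mmu-miR-532-5p ranked 52 and mmu-miR-501-3p 69 in Macs, against 115 and 234 in ECs.

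mmu-miR-532-3p averaged 47.8 ± 12.2 CPM in Macs (SD, n = 16), 20.7 ± 7.15 CPM in PT cells, 11 ± 2.75 CPM in ECs and 7.51 ± 2.73 CPM in PDGFR-β+ cells. mmu-miR-362-3p averaged 42.6 ± 25.1 CPM in Macs and 5.58 to 7.00 CPM in the other cell types, with no pair of these passing the test. mmu-miR-500-3p averaged 18.6 ± 7.93 CPM in Macs and 1.69 to 3.85 CPM elsewhere. The Mac level of these 3 miRNAs was the highest of the mouse's libraries in 16 of 16 mice.

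mmu-miR-188-5p was less restricted, with 9.32 ± 3.91 CPM in Macs (SD, n = 16), 5.83 ± 2.22 CPM in PT cells, 3.63 ± 1.48 CPM in PDGFR-β+ cells and 1.31 ± 0.735 CPM in ECs. Macs were highest in 11 of 16 mice. The gap between Macs and PT cells was small (log2 fold change 0.63 ± 0.22, SE, adjusted p = 0.0094, edgeR). It did not pass in the sham libraries alone (0.14, adjusted p = 0.81), and was under the fold limit without sham replicate 2 (0.58) or R-UUO replicate 1 (0.55).

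The minor arms mmu-miR-362-5p and mmu-miR-501-5p were close to the limit of detection. mmu-miR-362-5p averaged 4.76 ± 3.41 CPM in Macs (SD, n = 16) and 1.91 to 3.22 CPM elsewhere, and its Mac and PDGFR-β+ levels did not pass the test (log2 fold change 0.64 ± 0.35, SE, adjusted p = 0.097, edgeR). mmu-miR-501-5p averaged 2.03 ± 0.938 CPM in Macs and had no count in 10 of 16 EC, 8 of 15 PDGFR-β+ and 5 of 16 PT libraries. A count of 0 allows up to 3 counts, which is 0.277 to 1.07 CPM in ECs, 0.342 to 1.57 CPM in PDGFR-β+ cells and 0.589 to 4.87 CPM in PT cells before scaling, by counting error only.

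Counted over the cluster, with a call set at an adjusted p under 0.05 and a fold change over 1.5, 8 of 8 members were higher in Macs than in ECs (32.3% of all 671 loci were), 8 of 8 were higher in Macs than in PT cells (28.9% of loci) and 7 of 8 were higher in Macs than in PDGFR-β+ cells (32.8% of loci). Within cell types, mmu-miR-501-5p had enough counts to be tested in Macs only. It entered the fit over all libraries through its Mac counts, so its calls add no support to a higher level in Macs. The median log2 fold change of the members for Macs against PDGFR-β+ cells was 2.60, and that of all loci -0.06. The other 3 pairs set the cluster less apart. ECs and PT cells differed for 4 members, all lower in ECs (68.6% of loci differed in either direction), ECs and PDGFR-β+ cells for 3, all lower in ECs (40.2%), and PT cells and PDGFR-β+ cells for 3, all higher in PT cells (63.2%). Several of these calls were lost in the sham libraries alone. For ECs against PT cells these were mmu-miR-500-3p (log2 fold change -0.31, adjusted p = 0.59) and mmu-miR-532-3p (-0.38, adjusted p = 0.35), and for ECs against PDGFR-β+ cells mmu-miR-501-3p, as above, and mmu-miR-500-3p, whose log2 fold change of 0.029 (adjusted p = 0.96) had the opposite sign. mmu-miR-188-5p lost its calls in PT cells (0.84, adjusted p = 0.15) and Macs (0.97, adjusted p = 0.066) against PDGFR-β+ cells. The mmu-miR-500-3p call between ECs and PDGFR-β+ cells held in 16 of 23 alternatives. It was also lost with DESeq2 (-0.64, adjusted p = 0.058), with DESeq2 size factors in edgeR (-0.63, adjusted p = 0.070) and without R-UUO replicate 5 (-0.61), sham replicate 4 (-0.66), UUO-7 replicate 2 (-0.61) or UUO-7 replicate 5 (-0.67). Scaling by library size alone moved the fold changes further towards Macs, by a median log2 of 0.53 against PT cells and 1.07 against PDGFR-β+ cells, and ECs against Macs by -1.31. The log2 fold change of mmu-miR-501-3p for ECs against Macs was then -6.35 in place of -5.03. It also moved PT cells up by 0.54 against PDGFR-β+ cells, where 5 members then passed, and lowered ECs against PT cells (-0.78), where 7 then passed.

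The make-up of the cluster was also described by cell type, with no test. mmu-miR-532-5p gave 79.9 ± 2.54% of the cluster's counts in ECs (SD, n = 16), 67.2 ± 6.56% in PDGFR-β+ cells (n = 15), 60.0 ± 9.59% in Macs (n = 16) and 58.0 ± 6.90% in PT cells (n = 16). The share of mmu-miR-501-3p was 9.35 ± 2.59% in ECs, 20.1 ± 7.26% in PDGFR-β+ cells, 33.6 ± 10.3% in Macs and 29.6 ± 7.06% in PT cells. These means pool the conditions. In sham libraries alone (n = 4) mmu-miR-501-3p gave 8.22 ± 2.53% in ECs, a mean of 16.4% (11.6% to 22.3%) in PDGFR-β+ cells, 24.0 ± 1.43% in Macs and 28.1 ± 5.28% in PT cells, so Macs and PT cells stood in the reverse order, with overlap. mmu-miR-532-5p then gave 80.5 ± 2.92% in ECs, 69.6 ± 5.94% in PDGFR-β+ cells, 69.0 ± 1.24% in Macs and 59.4 ± 4.26% in PT cells. These shares do not depend on the scaling of the libraries. In all 4 cell types miR-532 was mostly the 5p arm (90.7% to 96.3% of the counts of both arms), while miR-501 was almost entirely the 3p arm (5p arm 0.327% to 1.18%).

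In Macs the cluster did not move as a unit with obstruction and reversal. mmu-miR-362-3p fell most, mmu-miR-532-5p and mmu-miR-500-3p fell, and mmu-miR-501-3p rose after reversal. CPM in the paragraphs on injury were scaled within the cell type, as in its test, and are not on the scale of the comparison of cell types above. All 8 members were tested among 457 loci.

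**Figure D2:**
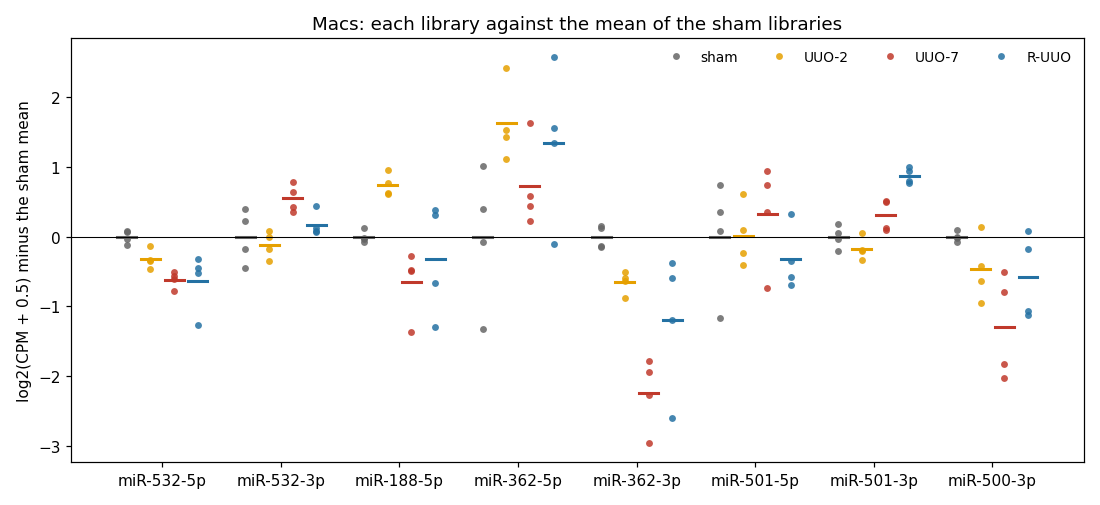
Macs: log2(CPM + 0.5) of each library minus the mean of the 4 sham libraries, for the 8 miRNAs by condition; points are libraries and bars are group means. mmu-miR-362-3p lies below sham in every UUO-7 library, mmu-miR-501-3p lies above sham in every R-UUO library, and 1 R-UUO library is low for mmu-miR-362-3p and mmu-miR-532-5p.

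mmu-miR-362-3p stood at 129, 107, 106 and 131 CPM in the sham Macs, 78.1, 75.2, 82.3 and 63.6 CPM at UUO-2, and 24.1, 30.3, 33.9 and 14.7 CPM at UUO-7. At R-UUO it stood at 77.7, 90.0, 51.2 and 19.0 CPM. Sham, UUO-2 and UUO-7 libraries did not overlap, and the R-UUO libraries spread from UUO-7 levels to above UUO-2. At UUO-7 it fell by 2.20 ± 0.34 on the log2 scale against sham (SE, adjusted p = 3.8e-05, edgeR), which was the sixth lowest of the 457 fold changes. It rose from UUO-7 to R-UUO by 1.24 ± 0.33 (adjusted p = 0.011) and was still lower than sham (-0.95 ± 0.32, adjusted p = 0.024). The UUO-2 value, -0.66 ± 0.31, did not pass (adjusted p = 0.12). The rise after reversal no longer passed without R-UUO replicate 2 (0.97, adjusted p = 0.052) or when the other conditions were left out of the model (1.13, adjusted p = 0.072). The R-UUO value against sham did not pass without R-UUO replicate 4 (-0.88, adjusted p = 0.066), sham replicate 1 (-0.91, adjusted p = 0.052) or sham replicate 4 (-0.90, adjusted p = 0.054).

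mmu-miR-532-5p stood at 2607, 2404, 2274 and 2589 CPM in sham Macs and at 1437, 1729, 1616 and 1664 CPM at UUO-7. Values were 1954, 1930, 2237 and 1785 CPM at UUO-2 and 1800, 1982, 1719 and 1029 CPM at R-UUO. The sham libraries were above all others, and the last R-UUO library was the lowest of the 16. It fell by 0.61 ± 0.16 on the log2 scale at UUO-7 (SE, adjusted p = 0.0036, edgeR) and by 0.60 ± 0.16 at R-UUO against sham (adjusted p = 0.0062), both near the fold limit. The UUO-7 value was -0.48 when libraries were scaled by size alone and -0.56 without UUO-7 replicate 2. The R-UUO value was -0.43 without R-UUO replicate 5, and -0.57 without sham replicate 1 or sham replicate 4. All of these were short of that limit.

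mmu-miR-501-3p went the other way. Its sham libraries stood at 973, 885, 745 and 835 CPM, its UUO-2 libraries at 886, 746, 739 and 676 CPM, and its UUO-7 libraries at 1210, 931, 1219 and 913 CPM. All R-UUO libraries were higher than any of these, at 1484, 1706, 1642 and 1452 CPM. Against sham it rose by 0.87 ± 0.14 on the log2 scale (SE, 1.83-fold, adjusted p = 8.5e-05, edgeR), and all 24 alternatives gave a call. Against UUO-7 the value was 0.56 ± 0.14 (adjusted p = 0.0064), 1.47-fold, under the limit of 1.5. At UUO-7 against sham it was 0.31 ± 0.14 and did not pass (adjusted p = 0.063).

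mmu-miR-500-3p, of the same seed, stood at 45.0, 39.8, 42.0 and 41.5 CPM in sham Macs and at 11.5, 29.5, 24.1 and 9.93 CPM at UUO-7. Values were 31.3, 26.9, 46.4 and 21.4 CPM at UUO-2 and 37.0, 44.5, 19.8 and 19.0 CPM at R-UUO. All UUO-7 libraries lay below sham, while the UUO-2 and R-UUO libraries overlapped it. It fell by 1.15 ± 0.35 on the log2 scale at UUO-7 (SE, adjusted p = 0.011, edgeR). Since mmu-miR-501-3p had many more counts, the sum of both moved with mmu-miR-501-3p, by 0.26 at UUO-7 (adjusted p = 0.11).

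mmu-miR-188-5p was highest at UUO-2, with 16.1, 14.5, 13.9 and 14.3 CPM in sham Macs and 28.8, 22.8, 22.7 and 25.4 CPM at UUO-2, which did not overlap. It stood at 10.4, 12, 5.41 and 10.3 CPM at UUO-7 and at 18.3, 19.2, 9.03 and 5.70 CPM at R-UUO. None of the 4 comparisons passed (UUO-2 against sham 0.76 ± 0.30, SE, adjusted p = 0.058; UUO-7 against sham -0.61 ± 0.31, adjusted p = 0.11, edgeR).

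Among the minor arms, mmu-miR-532-3p ranged from 50.8 to 91.8 CPM in sham Macs and from 88.8 to 119 CPM at UUO-7. The value of 0.52 ± 0.19 on the log2 scale (SE, adjusted p = 0.029, edgeR) was below the fold limit and opposite to mmu-miR-532-5p. mmu-miR-362-5p ranged from 0.936 to 6.74 CPM in sham Macs, from 7.25 to 18.6 CPM at UUO-2, from 3.72 to 10.7 CPM at UUO-7 and from 2.85 to 20.9 CPM at R-UUO. It rose at UUO-2 by 1.53 ± 0.53 (adjusted p = 0.035) and at R-UUO by 1.54 ± 0.53 (adjusted p = 0.030) against sham. With 2 to 26 counts per sham library these calls were fragile. Both were lost without R-UUO replicate 1 or sham replicate 1, 2 or 3, the first also without UUO-2 replicate 1 (1.18, adjusted p = 0.13) and the second without R-UUO replicate 2 (0.96, adjusted p = 0.19). mmu-miR-501-5p, at 1.1 to 6.39 CPM over all 16 Mac libraries, passed in no comparison.

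Counted over the 8 members, 1 was called at UUO-2 against sham (27.6% of the 457 loci were), 3 at UUO-7 against sham (43.1%), 1 at R-UUO against UUO-7 (19.9%) and 4 at R-UUO against sham (31.9%). The last count was 1 without sham replicate 1 and 2 without sham replicate 4. The share of members called was below that of all loci in the first 3 comparisons and above it in the last. The members' median log2 fold change was -0.15 at UUO-7 and -0.27 at R-UUO against sham, where all loci had 0.22 and 0.12. Beside them, the sum of the leukocyte markers averaged 39405 CPM in sham Macs, 19242 CPM at UUO-7 and 22387 CPM at R-UUO, and that of the stromal markers 3771, 3908 and 8498 CPM. Most of these sums was miR-142a-5p and miR-143-3p. At UUO-7 the leukocyte marker miR-223-5p rose (104 CPM in sham, 243 CPM at UUO-7), while the other leukocyte markers fell. The stromal markers other than miR-143-3p rose, among them miR-199a-3p from 98.4 to 335 CPM. The part of these shifts in the members' values was not tested.

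The make-up of the cluster, which needs no scaling between libraries, changed as well. mmu-miR-532-5p and mmu-miR-501-3p together gave most of the counts, so a larger share of one means a smaller share of the other. Shares therefore cannot show whether both moved or only 1 of them. mmu-miR-532-5p gave 69.0 ± 1.24% of the cluster's counts in sham Macs (SD, n = 4), 67.0 ± 2.55% at UUO-2, 56.7 ± 4.69% at UUO-7 and 47.4 ± 5.58% at R-UUO. mmu-miR-501-3p gave 24.0 ± 1.43%, 25.9 ± 2.37%, 37.5 ± 5.34% and 46.9 ± 5.92%. After reversal the highest share of mmu-miR-532-5p (51.4%) was below its lowest share in sham (67.6%), and the lowest share of mmu-miR-501-3p (42.4%) was above its highest in sham (25.2%). mmu-miR-362-3p went from 3.29 ± 0.198% in sham to 0.898 ± 0.265% at UUO-7 and 1.67 ± 0.735% at R-UUO.

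**Figure D3:**
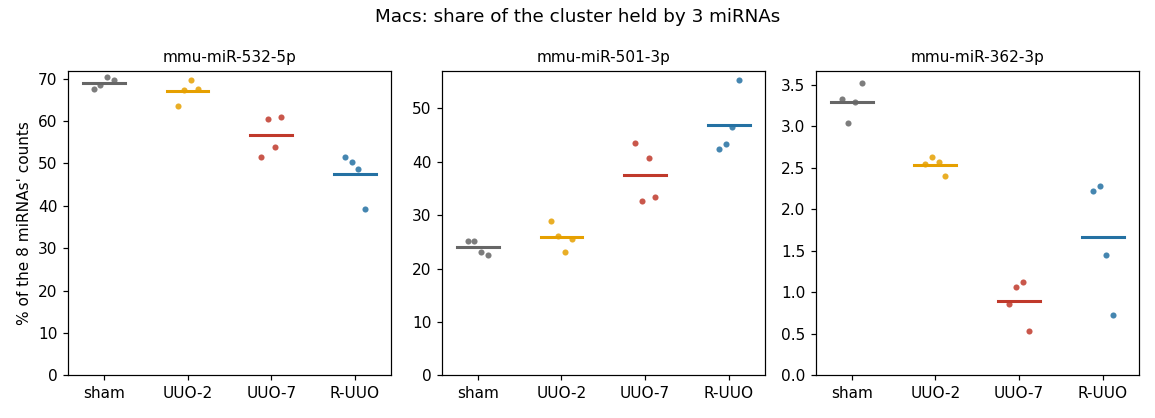
Macs: percent of the counts of the 8 miRNAs given by mmu-miR-532-5p, mmu-miR-501-3p and mmu-miR-362-3p in each library, by condition; bars are means of 4 libraries. From sham to R-UUO the mean share of mmu-miR-532-5p went from 69.0% to 47.4% and that of mmu-miR-501-3p from 24.0% to 46.9%.

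Arms of one hairpin come from the same precursor, so their ratio asks whether they moved together. In Macs the log2 ratio of 5p to 3p counts of miR-532 was 5.15 ± 0.294 in sham (SD, n = 4) and 3.98 ± 0.108 at UUO-7 (n = 4), with no overlap. That of miR-362 was -5.19 ± 0.954 in sham and -2.14 ± 1.15 at UUO-7, again with no overlap. The differences were -1.17 and 3.05, each with p = 0.0286 in an exact two-sided permutation test, the smallest p that 4 against 4 libraries can give. Over the 12 ratios tested (3 hairpins in 4 cell types) the adjusted p was 0.171 for both, so no ratio passed the correction. With so few libraries a ratio can pass it only if most of the 12 reach the smallest p. The correction therefore cannot decide whether the arms of miR-532 and miR-362 moved apart in Macs. miR-501 in Macs differed by 0.08 (exact permutation p = 0.857).

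In ECs, PT cells and PDGFR-β+ cells the arm ratios of all 3 hairpins overlapped between sham and UUO-7, with exact permutation p from 0.200 to 0.743. With 3 against 4 libraries the smallest p is 0.0571. Counts behind some ratios were few: the 5p arm of miR-362 had 61 counts in the 4 sham Mac libraries together and the 5p arm of miR-501 had 1 in the 4 sham PT libraries.

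**Figure D4:**
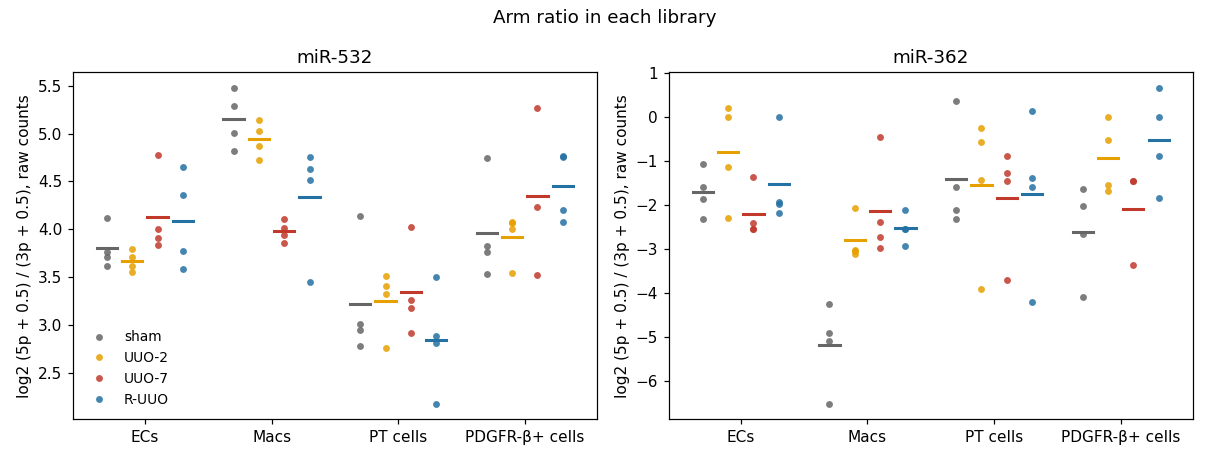
log2 ratio of 5p to 3p raw counts (0.5 added to each) of miR-532 and miR-362 in every library, by cell type and condition; bars are group means. In Macs the miR-532 ratio is lower and the miR-362 ratio higher at UUO-7 than in any sham library, while the groups overlap in the other cell types.

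In PDGFR-β+ cells the 2 abundant members rose with obstruction. mmu-miR-501-3p stood at 14.0, 19.0, 20.3 and 21.4 CPM in sham, 32.7, 17.9, 13.1 and 17.1 CPM at UUO-2, 49.1, 38.8 and 27.0 CPM at UUO-7, and 63.1, 52.0, 45.7 and 55.3 CPM at R-UUO. All UUO-7 and R-UUO libraries lay above all sham libraries, and the UUO-2 libraries overlapped sham. It rose by 1.05 ± 0.30 on the log2 scale at UUO-7 (SE, adjusted p = 0.0081, edgeR) and by 1.54 ± 0.28 (2.90-fold) at R-UUO against sham (adjusted p = 0.00044). Without UUO-7 replicate 2, the highest of its group, the UUO-7 value was 0.82 (adjusted p = 0.052).

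mmu-miR-532-5p stood at 92.1, 87.0, 88.3 and 59.2 CPM in sham PDGFR-β+ cells, 87.5, 82.9, 106 and 83.8 CPM at UUO-2, 163, 128 and 156 CPM at UUO-7, and 117, 98.5, 95.7 and 120 CPM at R-UUO. The UUO-7 libraries were above all others of the cell type. It rose by 0.87 ± 0.19 on the log2 scale at UUO-7 (SE, adjusted p = 0.0014, edgeR). At R-UUO against sham the value was 0.40 ± 0.17 (adjusted p = 0.069), and against UUO-7 -0.47 ± 0.19 (adjusted p = 0.19).

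Of the 7 members tested among 477 loci in PDGFR-β+ cells, 2 were called at UUO-7 against sham (48.2% of loci) and 1 at R-UUO against sham (41.7% of loci). The median log2 fold change of all loci was 0.50 at UUO-7 and 0.40 at R-UUO, so most loci lay on the higher side, and that of the members was 0.77 and 0.33. At UUO-2 against sham (6.29% of loci) and R-UUO against UUO-7 (3.98%), edgeR called 0 members, 0 and 1 had an unadjusted p under 0.05, and DESeq2 called 0. The mean of mmu-miR-501-3p was higher at R-UUO than at UUO-7, but the libraries overlapped and the difference was not called. The sum of the leukocyte markers went from 88.7 CPM in sham (0.327% of the mean in Macs) to 438 CPM at UUO-7 (1.61%) and 162 CPM at R-UUO (0.596%). On the same scale mmu-miR-501-3p went from 3.67% of its mean in Macs to 7.88% and 11%, and mmu-miR-532-5p from 8.94% to 16.8% and 12.1%. The sum of the stromal markers went from 371407 CPM in sham to 155813 CPM at UUO-7 and 135850 CPM at R-UUO. Most of that sum was miR-143-3p (365913, 135892 and 113240 CPM). miR-145a-5p also fell, while miR-199a-5p, miR-199a-3p (3594, 15845 and 17799 CPM) and miR-214-3p (67.4, 580 and 471 CPM) rose. The part of the marker shifts in the result was not tested.

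In PT cells only mmu-miR-501-3p, mmu-miR-532-5p and mmu-miR-532-3p had enough counts to be among the 330 loci tested. mmu-miR-501-3p stood at 106, 80.5, 84.8 and 73.8 CPM in sham, 90.6, 104, 97.0 and 107 CPM at UUO-2, and 91.3, 65.1, 95.6 and 93.6 CPM at UUO-7. The 4 R-UUO libraries were the highest of the cell type after scaling, at 146, 159, 151 and 125 CPM. The first of these, replicate 1, had the lowest TMM factor of the PT libraries (0.427), and its 10 most abundant loci took 86.4% of its counts. With 195 counts of mmu-miR-501-3p in 3122831, its place above the other groups rests on that factor. It rose after reversal by 0.75 ± 0.18 on the log2 scale against sham (SE, adjusted p = 0.0034, edgeR) and by 0.75 ± 0.17 against UUO-7 (adjusted p = 0.035). The first depended on the scaling, since with library size alone it was 0.31 (adjusted p = 0.38). The second passed in 9 of 24 alternatives, with values from 0.64 to 0.86 and adjusted p up to 0.34.

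mmu-miR-532-5p stood at 178, 190, 151 and 219 CPM in sham PT cells, 212, 181, 288 and 184 CPM at UUO-2, 184, 213, 313 and 235 CPM at UUO-7, and 166, 266, 153 and 185 CPM at R-UUO, with all groups overlapping. mmu-miR-532-3p ranged from 8.11 to 40.5 CPM over the 16 libraries, also with overlap between all groups. edgeR called 0 of 3 members at UUO-2 (19.1% of loci) and 0 at UUO-7 (43.0%) against sham, with 0 at an unadjusted p under 0.05 and 0 by DESeq2. It called 1 at R-UUO against UUO-7 (1.52%) and 1 at R-UUO against sham (38.8%). The PT markers went from a summed mean of 118287 CPM in sham to 43052 CPM at R-UUO, the stromal markers from a median of 2450 CPM to 5207 CPM (3824 to 25835 CPM over the 4 R-UUO libraries, with 1 library far above the others), the leukocyte markers went from 0.316% to 0.637% of their Mac mean, and mmu-miR-501-3p from 11.4% to 19.6% of its Mac mean. The 5 miRNAs listed for the epithelium of other segments (miR-200a, miR-200b, miR-200c, miR-141 and miR-429, 3p arms) also shifted. Their sum averaged 5719 CPM in sham PT cells, 9311 CPM at UUO-7 and 7752 CPM at R-UUO. At R-UUO miR-429-3p was lower than in sham (1589 against 1807 CPM) and the others were higher, among them miR-141-3p (921 against 84.7 CPM). The part of these shifts in the result was not tested.

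In ECs no member passed in any comparison. mmu-miR-532-5p stood at 116, 115, 118 and 102 CPM in sham, 126, 124, 113 and 108 CPM at UUO-2, 103, 118, 129 and 112 CPM at UUO-7, and 92.7, 102, 83.4 and 84.0 CPM at R-UUO. The R-UUO libraries were below all sham and UUO-7 libraries by small margins (against sham -0.32 ± 0.12 on the log2 scale, SE, adjusted p = 0.075, edgeR). mmu-miR-501-3p ranged from 7.98 to 17.9 CPM over the 16 libraries, with all groups overlapping. Of the 6 members tested among 469 loci, edgeR called 0 at UUO-2 against sham (1.71% of loci), 0 at UUO-7 against sham (11.5%), 0 at R-UUO against UUO-7 (1.07%) and 0 at R-UUO against sham (16.8%). DESeq2 called 0 in each, and 0, 0, 1 and 2 members had an unadjusted p under 0.05.

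**Figure D5:**
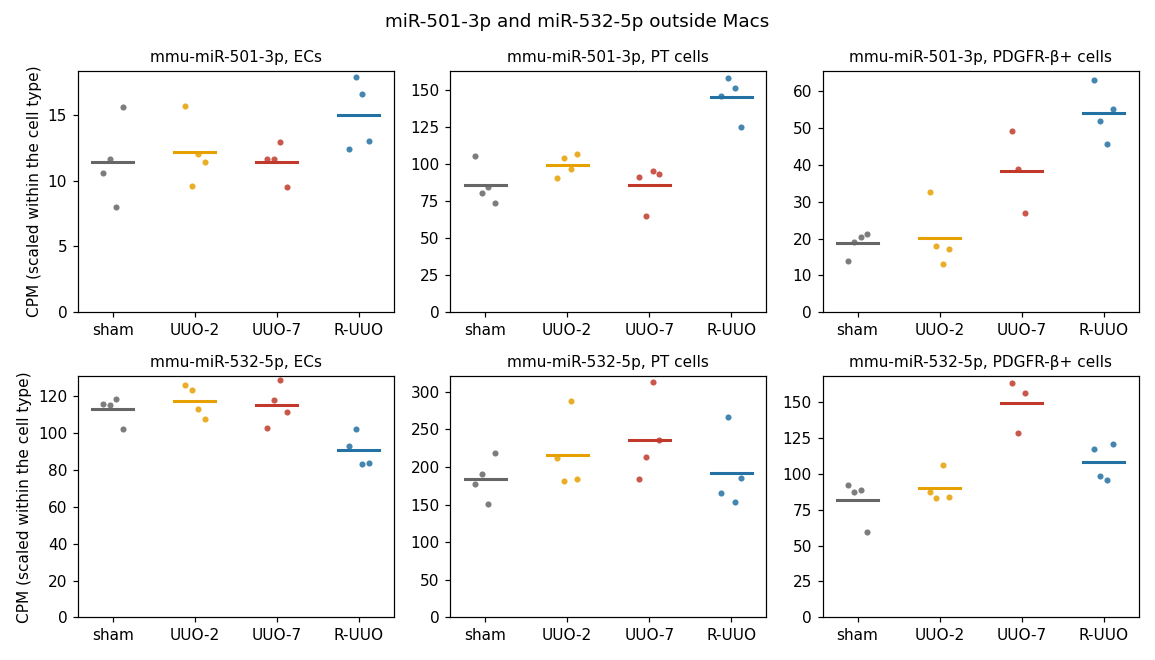
mmu-miR-501-3p and mmu-miR-532-5p in ECs, PT cells and PDGFR-β+ cells, in CPM scaled within the cell type, by condition; points are libraries and bars are group means. mmu-miR-501-3p is highest at R-UUO in PT cells (125 to 159 CPM) and PDGFR-β+ cells (45.7 to 63.1 CPM), and mmu-miR-532-5p is highest at UUO-7 in PDGFR-β+ cells (128 to 163 CPM). The PT value of R-UUO replicate 1 rests on a low TMM factor (0.427).

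The change at UUO-7 was then compared between each cell type and the mean of the other 3 in one fit over all libraries. For Macs 2 of 8 members differed (20.1% of 671 loci did), mmu-miR-362-3p by -2.99 ± 0.51 (SE, adjusted p = 7e-06, edgeR) and mmu-miR-532-5p by -1.19 ± 0.21 (adjusted p = 1.4e-05) on the log2 scale. All 19 alternatives for each gave a call. For PDGFR-β+ cells 2 differed (22.8% of loci), mmu-miR-501-3p by 1.06 ± 0.25 (adjusted p = 0.00073) and mmu-miR-532-5p by 1.03 ± 0.22 (adjusted p = 0.00025), where the median of all loci was 0.33. Without UUO-7 replicate 2 the mmu-miR-501-3p call was lost (0.69, adjusted p = 0.074) and that of mmu-miR-532-5p was 0.72 (adjusted p = 0.036). For ECs (11.8% of loci) and PT cells (23.8%) edgeR called 0 members, with 2 at an unadjusted p under 0.05 in each, and DESeq2 was not run. Each contrast takes in the other 3 cell types, so the Mac and PDGFR-β+ calls of mmu-miR-532-5p are not separate results. In the fits within a cell type its UUO-7 log2 change was -0.61 in Macs and 0.87 in PDGFR-β+ cells. Differences between cell types after reversal were not tested.

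Within Macs, deviations of the members from their group means in log2 CPM tended to have the same sign in the same library. Over 16 libraries the 28 pairs of members had a median Pearson r of 0.35, from -0.10 for mmu-miR-532-3p with mmu-miR-362-3p to 0.78 for mmu-miR-532-5p with mmu-miR-362-3p, and all pairs of the 671 loci had a median of 0.03. In ECs, PT cells and PDGFR-β+ cells the median over member pairs was 0.04, -0.05 and -0.01. The points share library, depth and scaling, most members outside Macs had few counts, and r is given as a description.

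The other mature miRNAs of the same hairpins were almost absent. mmu-miR-500-5p had 33 counts and mmu-miR-188-3p 99 counts over all 63 libraries, with means of 0.232 and 0.778 CPM in Macs, and both failed the filter on low counts. Of miRNAs elsewhere in the genome that share a seed with a member, mmu-miR-329-3p (seed ACACACC, shared with mmu-miR-362-3p) had 97 counts, none of them in Macs or PT cells, and mmu-miR-7061-3p (seed AUCCCUU, shared with mmu-miR-188-5p) had 12. mmu-miR-500-5p shares AUCCUUG with mmu-miR-362-5p. For the 7 members with a sequence, no seed mate outside the cluster passed the filter.

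The loci whose profile over the 63 libraries was most like the members' mean z score were mmu-miR-1839-5p (Pearson r 0.95), mmu-miR-340-5p (0.94), mmu-miR-425-5p (0.93), mmu-miR-6537-3p (0.93) and mmu-miR-93-5p (0.92). All 5 had their highest mean in Macs. mmu-miR-340-5p, the most abundant of them after mmu-miR-93-5p, averaged 1006 ± 264 CPM in Macs (SD, n = 16) and 133 to 218 CPM in the other cell types. Over the 16 group means r was 0.93 to 0.96. The r values include the gap between Macs and the other cell types, and the points share libraries.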

How the data were processed

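Small RNA of 4 sorted cell types from 16 mice in 4 conditions gave 63 libraries, grouped by the labels. The authors trimmed reads with Trim Galore 0.4.1 and cutadapt 1.1, used ShortStack, which runs Bowtie, for alignment to the GRCm38 genome and miRBase 22, and deposited raw counts per mature miRNA locus. Strand and the placement of multi-mapping reads are not given in the sources used here. The pooled column (1) was not used. Members, gene lists and tests were chosen with earlier results of these data known.

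Counts were analysed with edgeR 4.0.16: filterByExpr, TMM scaling and the quasi-likelihood test, with Benjamini-Hochberg adjustment over all loci tested (671 over all libraries, 330 to 477 within a cell type), an adjusted p under 0.05 and a fold change over 1.5. Changes with injury were fitted over all libraries of a cell type. Fits without 1 library or mouse kept the loci of the full fit, because a new filter changed the TMM reference library. In the fit over all libraries without UUO-7 replicate 2, all members still moved the same way for ECs against Macs. The log2 fold change of mmu-miR-532-5p went from -2.80 to -3.00 and that of mmu-miR-532-3p from -2.12 to -2.33. The part of scaling in the fits without this mouse was not tested. DESeq2 1.42.0 was an alternative. Arm ratios of raw counts, with 0.5 added, were compared by an exact permutation test. Intervals at a count of 0 use 3 counts. Values were given in every library for the 5 members called in most comparisons, and the 5 loci most alike were chosen by Pearson r. The fits were tested on simulated data. Replicate numbers in the sample titles were taken to mark 1 mouse across cell types within a condition and different mice across conditions. The support for this was weak. The mean correlation of deviations between cell types was 0.06 over 93 pairs of libraries with the same number and -0.02 for other numbers.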

Additional observations from a re-analysis of the deposited data

Results flagged for a closer look

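Among 89 groups of 4 libraries, 6 held a library far from the other 3 by Dixon's 95% criterion, where chance gives about 1 in 20 groups. In sham PDGFR-β+ cells these were replicate 4 for mmu-miR-532-5p, at 59.2 CPM against 87.0 to 92.1 CPM in the others, and replicate 2 for both mmu-miR-188-5p (6.02 CPM against 2.38 to 2.85 CPM) and mmu-miR-362-3p (7.71 CPM against 2.85 to 3.65 CPM). R-UUO Macs replicate 5, the library with the lowest mmu-miR-532-5p, was high for the opposite arm mmu-miR-532-3p, at 94.0 CPM against 72.3 to 75.3 CPM. UUO-7 PT cells replicate 3 was low for mmu-miR-501-3p, at 65.1 CPM against 91.3 to 95.6 CPM. UUO-2 PDGFR-β+ cells replicate 3 was high for mmu-miR-500-3p, at 5.74 CPM against 1.08 to 1.85 CPM.

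The change at UUO-7 differed between cell types in the edgeR fit over all libraries in 4 contrasts, and those of mmu-miR-532-5p are not separate results. In Macs against the other 3 cell types the log2 difference was -2.99 for mmu-miR-362-3p and -1.19 for mmu-miR-532-5p. In PDGFR-β+ cells against the other 3 it was 1.06 for mmu-miR-501-3p and 1.03 for mmu-miR-532-5p.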

How the results depend on the processing

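The counts of members called were recomputed under each alternative. With library size in place of TMM, ECs and PT cells differed for 7 members, PT and PDGFR-β+ cells for 5, and the UUO-7 change of PT cells for 1. ECs then had 2 at R-UUO against sham, Macs 2 at UUO-2 and 2 at R-UUO against UUO-7, PT cells 0 at R-UUO against UUO-7 and 0 against sham, and PDGFR-β+ cells 3 at R-UUO against sham. DESeq2 gave 2 for Macs at UUO-2 and 2 for PDGFR-β+ cells at R-UUO against sham. With no filter on low counts, Macs had 2 at UUO-2, and PT cells 0 in both R-UUO comparisons. With only the groups compared, Macs had 3 at UUO-2, 0 at R-UUO against UUO-7 and 1 at R-UUO against sham, and PT cells 0 at R-UUO against UUO-7. Sham libraries alone gave 5 between Macs and PT cells. There mmu-miR-188-5p lost its call, and mmu-miR-362-5p and mmu-miR-501-5p had too few counts to be tested. Sham libraries alone also put mmu-miR-500-3p at 0.029 between ECs and PDGFR-β+ cells, against its direction. Summed with mmu-miR-501-3p, mmu-miR-500-3p was 0.26 in Macs at UUO-7. A filter asking for 3 libraries, chosen after seeing the data, passed 477 loci in Macs in place of 457 and gave 0 at UUO-2 and 2 at R-UUO against UUO-7, with mmu-miR-532-5p at -0.78 and mmu-miR-501-3p after reversal at 0.74. The cause of the other moves was not tested.

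The replicate number as a replicate block gave 2 for Macs at R-UUO against sham and 0 for PT cells at R-UUO against UUO-7. The numbers share only a name across conditions (mean correlation of deviations -0.05 in Macs). The mouse as a replicate block changed none of the 10 counts of the fit over all libraries.

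Without 1 library or mouse, counts in Macs were 0 to 3 at UUO-2, 2 to 4 at UUO-7, 0 to 2 at R-UUO against UUO-7 and 1 to 4 at R-UUO against sham. In PT cells they were 0 to 1 at R-UUO against UUO-7. In PDGFR-β+ cells they were 1 to 3 at UUO-7 and 1 to 2 at R-UUO against sham, and in ECs 0 to 1 at R-UUO against sham (1 without R-UUO replicate 1). For the UUO-7 change between cell types they were 0 to 1 in ECs (1 without UUO-2 replicate 3), 0 to 1 in PT cells (1 without sham replicate 2) and 1 to 2 in PDGFR-β+ cells. Shallow PT libraries, from 616565 counts, limit what could be tested there to 3 members.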
